A study of Homo sapiens with 6 samples.

Results

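A set of 10 genes that mark endothelial cells, the lining cells of blood vessels, was followed in reprogramming fibroblasts: KDR, FLT1, ROBO4, S1PR1, NOS3, ENG, TEK, TIE1, CDH5 and PECAM1. They were chosen by symbol, with earlier results of these data known, and all 10 of 10 were found among the 27788 genes of the deposited table. Expression was measured by poly-A RNA sequencing in the established human foreskin fibroblast line BJ, 8 days after lentiviral delivery of OCT4 with SOX2 and of KLF4 with MYC as polycistronic constructs. Every library shares this infection, growth first in serum and later in medium for human embryonic stem cells with bFGF, and release with trypsin before the sort. Cells were sorted by the surface proteins CD13 and CD201 into double-negative cells (CD13-, CD201-), CD201-only cells (CD13-, CD201+) and double-positive cells (CD13+, CD201+). Each group has 2 libraries, 6 in all. The labels do not say whether the 2 came from separate cultures, so the p-values measure the spread between these libraries, which may be technical. No uninfected fibroblasts and no endothelial cells were analysed here. The sort marker CD201 is itself an endothelial protein, the endothelial protein C receptor.

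Endothelial cells sense vascular endothelial growth factor (VEGF) mainly through KDR, also called VEGFR2, which carries most of the growth and migration signal. FLT1, or VEGFR1, binds VEGFA more tightly but signals weakly, and its soluble splice forms act as a trap for the ligand. TEK and TIE1 form the angiopoietin receptor system, ENG is a co-receptor for BMP9, S1PR1 senses sphingosine 1-phosphate, and NOS3 makes nitric oxide. CDH5 and PECAM1 are the adhesion molecules that hold endothelial cells together. Several of these genes are not restricted to endothelium: ENG is also carried by mesenchymal cells and KDR by early mesoderm.

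The windows around the start sites of 4 of the genes are shown because KDR and FLT1, which are paralogs, differed in opposite directions between double-negative and double-positive cells, while NOS3 and ROBO4 had the largest differences there among the 8 genes of the set that were tested. Each window runs from 250 bases before to 50 bases after the start, 5′ to 3′ on the gene's strand, from RefSeq on build GRCh38.p14, which is not the build of the expression values. Capitals mark GGAA or its reverse complement TTCC, the core of the sites that ETS factors bind.
KDR: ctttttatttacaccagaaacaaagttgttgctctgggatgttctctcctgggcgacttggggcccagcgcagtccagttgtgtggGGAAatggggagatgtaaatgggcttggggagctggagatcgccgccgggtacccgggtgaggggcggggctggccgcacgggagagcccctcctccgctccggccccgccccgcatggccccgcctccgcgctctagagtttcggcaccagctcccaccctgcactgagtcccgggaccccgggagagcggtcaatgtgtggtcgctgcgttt
FLT1: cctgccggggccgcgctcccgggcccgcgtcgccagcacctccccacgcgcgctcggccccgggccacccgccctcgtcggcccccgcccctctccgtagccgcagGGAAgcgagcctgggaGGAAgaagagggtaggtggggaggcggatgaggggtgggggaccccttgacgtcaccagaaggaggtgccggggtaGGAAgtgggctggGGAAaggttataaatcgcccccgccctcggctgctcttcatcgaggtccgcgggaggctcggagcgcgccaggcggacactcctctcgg
ROBO4: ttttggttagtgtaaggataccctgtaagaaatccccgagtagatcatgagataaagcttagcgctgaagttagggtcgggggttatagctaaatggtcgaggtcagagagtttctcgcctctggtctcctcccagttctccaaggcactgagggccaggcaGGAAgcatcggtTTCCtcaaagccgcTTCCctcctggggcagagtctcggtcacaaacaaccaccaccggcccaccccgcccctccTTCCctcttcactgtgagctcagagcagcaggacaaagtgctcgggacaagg
NOS3: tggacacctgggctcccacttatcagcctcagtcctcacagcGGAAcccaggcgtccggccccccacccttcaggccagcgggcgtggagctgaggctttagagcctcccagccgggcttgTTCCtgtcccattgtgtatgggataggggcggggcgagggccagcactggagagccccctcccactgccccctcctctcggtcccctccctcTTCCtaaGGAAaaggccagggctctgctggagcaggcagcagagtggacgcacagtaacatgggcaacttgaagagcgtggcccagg
The KDR window is at chr4:55125546-55125845 on the minus strand, FLT1 at chr13:28495079-28495378 (minus), ROBO4 at chr11:124897816-124898115 (minus) and NOS3 at chr7:150993532-150993831 (plus, the first of 2 starts in the table). KDR held 1 GGAA match, and FLT1, ROBO4 and NOS3 held 4 each, with both strands searched. Among 35116 promoter windows the median was 3 matches, and 95.5% held at least 1. The GC box GGGCGG, searched on both strands, matched 2 times in KDR, 3 times in FLT1 and 1 time each in ROBO4 and NOS3, and 45% of all windows held it. TATAAA was found in FLT1, starting 31 bases before the start site, and not in the windows of KDR, ROBO4 or NOS3 (11.5% of all windows hold it). The AP-1 letters TGANTCA, the octamer ATGCAAAT and the letters ACGTG had no match in the windows of the 8 genes with an entry, against 7.71%, 1.77% and 21.4% of all windows. A match to one motif can share bases with a match to another, and these matches are a description of the letters. GC content was 65% for KDR, 73.3% for FLT1, 55.3% for ROBO4 and 65.3% for NOS3, with a median of 58.7% over all windows.

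Values are FPKM, fragments per kilobase of transcript scaled between libraries by an option not given in the sources used here. Levels can be compared between genes of a library. Between 11983 and 12168 genes reached 1 FPKM in a library. Tests used limma on log2(FPKM + 1) over the 12210 genes averaging 1 FPKM or more, and a gene was called at a Benjamini-Hochberg adjusted p under 0.05. Log2 differences on this scale understate the ratio of low genes. Fibroblast markers were present in every group, with 10 of 12 at 1 FPKM or more in both double-negative libraries, 9 in CD201-only cells and 12 in double-positive cells, and their sum was 5511 and 5516, 6391 and 6370, and 10840 and 10700 FPKM in that order. S100A4, a large part of the sum, was at 1270, 2566 and 2211 FPKM as group means. THY1, also a large part, was at 1642, 1175 and 1370 FPKM. It was higher in double-negative than in double-positive cells (0.26, adjusted p = 2.61e-05), where the other 10 of 11 tested fibroblast genes were lower. In double-negative against CD201-only cells 7 of 11 tested fibroblast genes were higher and 3 lower (all genes 21.5% and 16.5%). ANPEP, the gene of CD13, was 4.32 times higher in double-positive than in double-negative cells, and PROCR, the gene of CD201, 3.0 times.

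Of the 10 genes, 8 passed the filter on low values and CDH5 and PECAM1 did not. The filter takes the mean over all libraries, so KDR, ROBO4 and TIE1, each under 1 FPKM in at least 1 group, passed through the groups where they are high. The defining adhesion genes were near 0. CDH5, or VE-cadherin, was at 0.218 and 0.261 FPKM in double-negative, 0.0942 and 0.0863 in CD201-only and 0.0704 and 0.0831 in double-positive libraries. PECAM1, or CD31, was listed at 0 in both double-negative libraries and was at 0.0137 and 0.0334 in CD201-only and 0.0154 and 0.0677 FPKM in double-positive libraries. Both double-negative libraries were above the others for CDH5, while the CD201-only and double-positive libraries of PECAM1 overlapped. On an approximate depth these are about 3 to 18 fragments of CDH5 and 0 to 6 of PECAM1. With no filter, limma called CDH5 higher in double-negative than in double-positive cells (0.20, SE 0.0285, adjusted p = 0.00394) and than in CD201-only cells (0.18, adjusted p = 0.0122). PECAM1 was called in none of the 3 comparisons, with unfiltered adjusted p from 0.2 to 0.595.

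**Figure D1:**
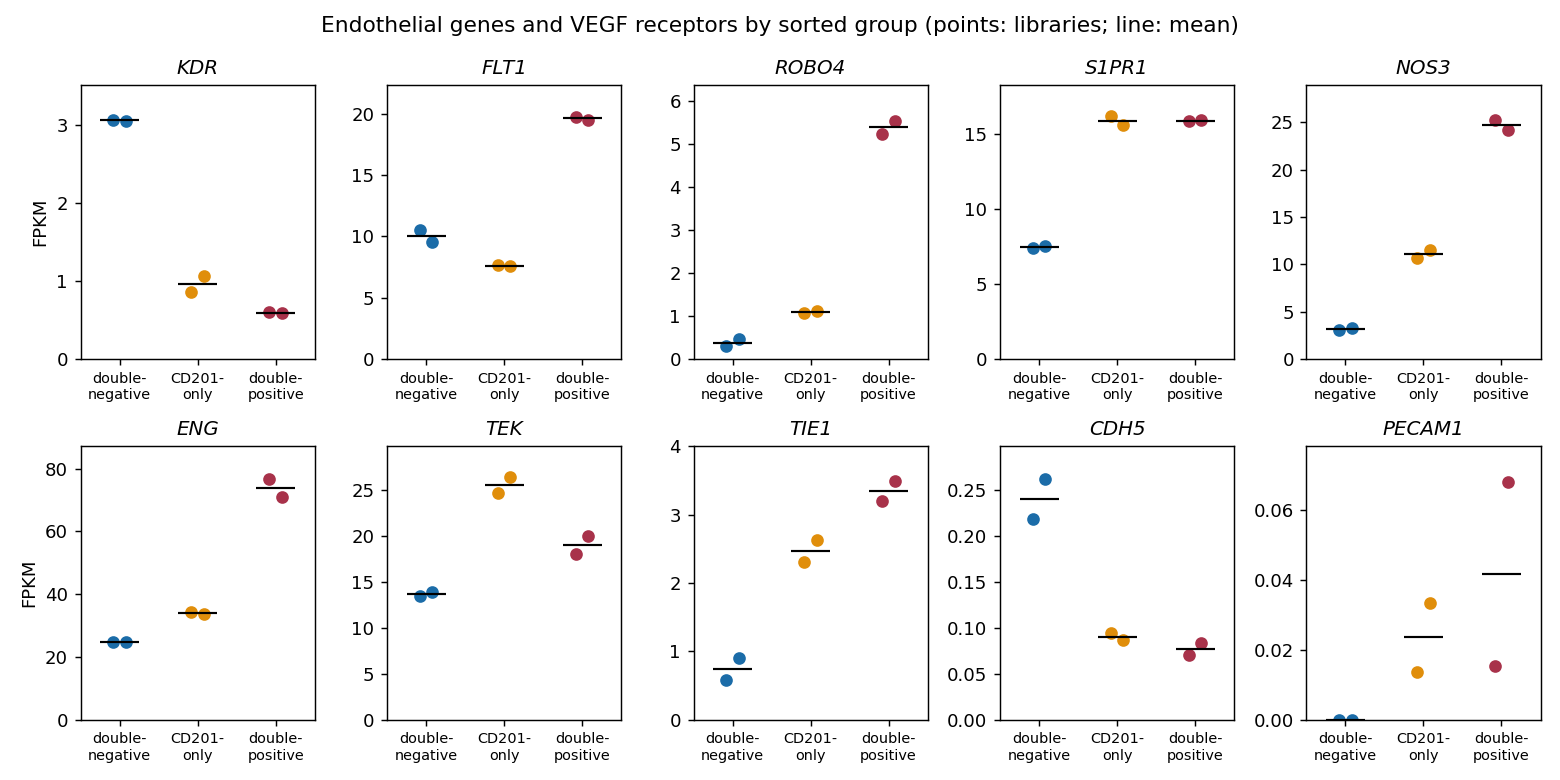
FPKM of each of the 10 genes (vertical axis, linear from 0, scaled per gene) in the 3 sorted groups, with a point per library and a line at the mean of 2. KDR and CDH5 are highest in double-negative cells, TEK in CD201-only cells, and FLT1, ROBO4, NOS3, ENG and TIE1 in double-positive cells.

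KDR and FLT1 were ordered differently over the groups. KDR was at 3.07 and 3.05 FPKM in the double-negative libraries, 0.861 and 1.06 in CD201-only and 0.602 and 0.585 in double-positive libraries. Its 3 groups did not overlap, and double-negative cells were 5.15 times above double-positive cells. FLT1 was at 10.5 and 9.51, 7.63 and 7.60, and 19.7 and 19.5 FPKM in the same order. It was highest in double-positive cells, 1.96 times above double-negative and 2.58 times above CD201-only cells, again with no overlap.

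KDR and FLT1 were chosen as a pair with earlier results of these data known, so the p-values below are no independent test of their opposite directions. limma gave KDR a log2 difference of 1.35 (SE 0.0908, adjusted p = 1.63e-05) between double-negative and double-positive cells, and FLT1 -0.91 (SE 0.0561, adjusted p = 1.08e-05). In this comparison 66.6% of all genes were called, 42.1% higher and 24.5% lower in double-negative cells. With a pseudocount of 0.1 the KDR difference was 2.19. Against CD201-only cells both receptors were higher in double-negative cells, KDR by 1.05 (adjusted p = 0.000157, and 1.58 with a pseudocount of 0.1) and FLT1 by 0.35 (adjusted p = 0.00274), and 37.9% of all genes were called. CD201-only against double-positive cells, with 58.7% of genes called, gave 0.30 for KDR (95% interval 0.082 to 0.51, adjusted p = 0.0264) and -1.26 for FLT1 (adjusted p = 2.88e-06). That KDR call was lost without CD201-only replicate 2 (0.22, adjusted p = 0.129), without double-positive replicate 1 (adjusted p = 0.0602) and without double-positive replicate 2 (adjusted p = 0.0672), and with a pseudocount of 0.1 the value was 0.61.

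Within each library FLT1 stood above KDR. The ratio of FLT1 to KDR was 3.43 and 3.12 in double-negative, 8.86 and 7.18 in CD201-only and 32.8 and 33.4 in double-positive libraries. The ratios of the 3 groups did not overlap. KDR rests on few fragments in double-positive cells, about 31 and 42, against about 240 and 220 in double-negative cells. Gene-level FPKM do not separate full-length FLT1 from its soluble forms.

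**Figure D2:**
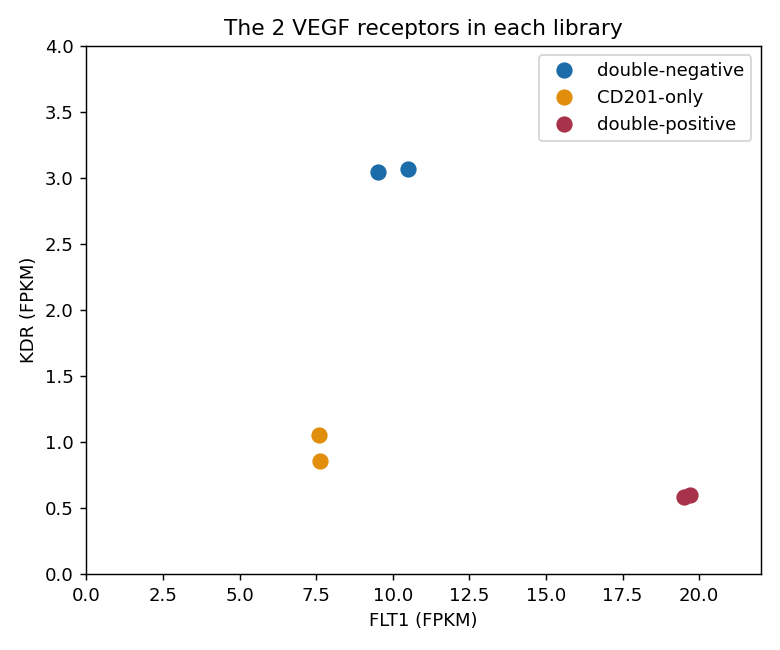
FPKM of FLT1 (horizontal axis) against FPKM of KDR (vertical axis), both linear, with a point per library coloured by sorted group. The double-negative libraries sit highest on KDR, the double-positive libraries farthest right on FLT1, and the CD201-only libraries low on both.

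Among the genes whose profile over the 6 libraries lay nearest to KDR, by root mean square distance of centred log2(FPKM + 1) among genes averaging 5 FPKM or more, were ZDHHC22 (distance 0.055), MET (0.0679), RGS5 (0.0727) and AADAT (0.0777). MET, the receptor for hepatocyte growth factor, was at 20.8, 8.88 and 7.85 FPKM as the group means, from double-negative through CD201-only to double-positive. RGS5, a marker of pericytes, was at 30.1, 14.4 and 11.8 FPKM. Most of the mural cell list had the other direction in double-negative against double-positive cells (2 higher and 6 lower of 9 tested, all genes 42.1% and 24.5%), among them PDGFRB (-2.55, adjusted p = 2.16e-08) and CSPG4 (-2.08, adjusted p = 1.11e-07). Nearest to FLT1 were DCHS1 (0.0373), ITPRIP (0.0466), HLA-C (0.0492), KDELR3 (0.051) and ANGPTL4 (0.0559). ANGPTL4, a secreted inhibitor of lipoprotein lipase, was at 61.5, 47.8 and 112 FPKM. These profiles share the same libraries and follow the differences between 3 groups.

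Of the ligands, VEGFA, which binds both receptors, was at 14.6 and 15.4 FPKM in double-negative, 12.2 and 12.8 in CD201-only and 22.9 and 22.8 in double-positive libraries, the same order of groups as FLT1. PGF and VEGFB, of the same list, had other orders. As group means PGF was at 39.54, 32.43 and 33.05 FPKM, and VEGFB at 24.39, 25.87 and 28.23. In double-negative against double-positive cells PGF was higher (0.25, adjusted p = 0.000533) and VEGFB lower (-0.20, adjusted p = 0.0149). VEGFD, a ligand of KDR and FLT4, was highest in double-negative cells, at 12.9 and 12.4 FPKM against 5.17 and 6.02 in double-positive libraries (log2 difference 1.05, SE 0.0772, adjusted p = 2.45e-05). VEGFC, the other ligand of FLT4, was lower in double-negative (-0.77, adjusted p = 0.000281) and in CD201-only cells (-1.54, adjusted p = 1.07e-05) than in double-positive cells. NRP1, a co-receptor that KDR uses, was at 26.5 and 27.4 FPKM in CD201-only libraries and between 54.9 and 58.1 in the other 4, and it was lower in CD201-only than in double-positive cells (-1.06, adjusted p = 5.99e-07). FLT4, the lymphatic receptor, was at no more than 0.211 FPKM and was not tested. Of 7 tested genes of the VEGF list, 2 were higher, 3 lower and 2 not called in double-negative against double-positive cells (median -0.065, against 0.109 for all genes tested). CD201-only cells had 1 higher and 4 lower (median -0.32, all genes 0.077). Of all genes, 42.1% were higher and 24.5% lower in the first of these comparisons, and 35.8% and 22.9% in the second.

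NOS3 and ROBO4 had the largest differences between double-negative and double-positive cells among the 8 tested genes of the set. NOS3, the endothelial nitric oxide synthase, was at 3.11 and 3.25 FPKM in double-negative, 10.7 and 11.5 in CD201-only and 25.2 and 24.2 in double-positive libraries. The groups rose in steps without overlap, and double-positive cells were 7.77 times above double-negative cells (log2 difference of double-negative against double-positive -2.62, SE 0.0566, adjusted p = 1.13e-07). Both steps were called, -1.53 between double-negative and CD201-only cells (adjusted p = 4.03e-06) and -1.09 between CD201-only and double-positive cells (adjusted p = 5.83e-06). In the GENCODE 29 annotation 786 exonic nucleotides of NOS3 overlap ATG9B on the opposite strand, and whether the authors' counting used strand is not given in the sources used here. ATG9B itself was at 0.704 and 0.632, 1.45 and 1.47, and 1.26 and 1.16 FPKM, well under NOS3 in each library and highest in CD201-only cells.

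Among its partners, CAV1, the caveolin that binds and restrains NOS3, was at 123 and 121 FPKM in double-negative, 64.3 and 67.8 in CD201-only and 268 and 278 in double-positive libraries, so that CD201-only cells were lowest (-2.03 against double-positive, SE 0.0335, adjusted p = 4.83e-08). GCH1, which makes the cofactor tetrahydrobiopterin, went the other way, at 16.2 and 15.2 FPKM in double-negative, 6.88 and 5.63 in CD201-only and 6.0 and 6.11 in double-positive libraries (1.24 in double-negative against double-positive, adjusted p = 1.84e-05). DDAH2, which breaks down an inhibitor of the synthases, was lower in CD201-only than in double-positive cells (-0.21, adjusted p = 0.00288). Of 5 tested partners 2 were higher and 2 lower in double-negative than in double-positive cells (all genes 42.1% and 24.5%). In CD201-only against double-positive cells 0 were higher and 2 lower (all genes 35.8% and 22.9%). The other synthases, NOS1 and NOS2, were at no more than 0.0113 and 0.145 FPKM.

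ROBO4, a receptor of the roundabout family that stabilises vessels, was at 0.315 and 0.455 FPKM in double-negative, 1.07 and 1.12 in CD201-only and 5.25 and 5.54 in double-positive libraries. These levels are low, about 27 and 36 fragments in double-negative cells, and they rose in steps without overlap, 14 times from the lowest to the highest group. The log2 difference was -2.21 between double-negative and double-positive cells (SE 0.0899, adjusted p = 1.57e-06), and -3.52 with a pseudocount of 0.1. Between double-negative and CD201-only cells it was -0.60 (adjusted p = 0.00215), and -1.31 with that pseudocount. CD201-only cells were 4.93 times below double-positive cells (-1.61, adjusted p = 8e-06). Exons of ROBO4 overlap those of antisense genes that have no row in the deposited table.

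UNC5B, a receptor that ROBO4 binds, was at 19.2 and 19.4 FPKM in double-negative, 33.4 and 33.1 in CD201-only and 41.0 and 38.5 in double-positive libraries, the same order as ROBO4. SLIT3, a secreted ligand of the roundabout family, had that order too, at 2.28 and 2.41, 5.92 and 5.88, and 13.3 and 13.6 FPKM (-2.11 in double-negative against double-positive, adjusted p = 3.06e-07). ROBO3 was lower in both CD13- groups than in double-positive cells (-1.03, adjusted p = 0.000114, and -0.69, adjusted p = 0.00107), at no more than 1.90 FPKM. ROBO1, the family's widely expressed receptor, was at 39.4 and 40.2 FPKM in double-negative and between 23.1 and 25.0 in the other libraries, higher in double-negative than in double-positive cells (0.65, adjusted p = 6.71e-06). Of 5 tested genes of this list 1 was higher and 4 lower in double-negative against double-positive cells (median -1, all genes 42.1% and 24.5%). In CD201-only against double-positive cells 0 were higher and 4 lower (median -0.69, all genes 35.8% and 22.9%).

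**Figure D3:**
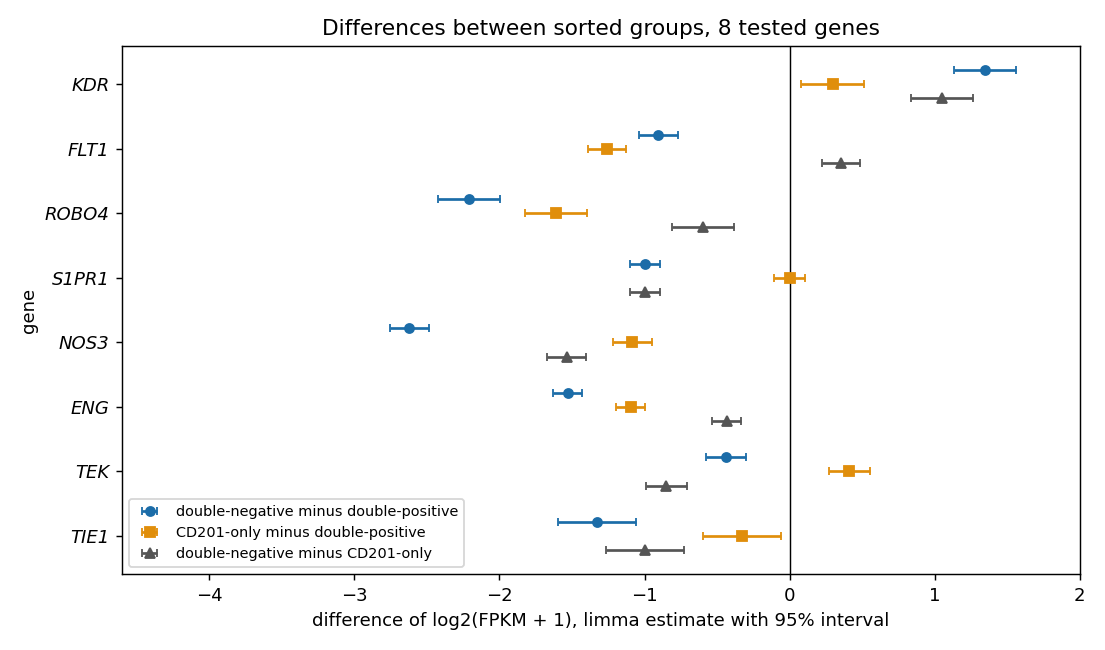
Differences of log2(FPKM + 1) between sorted groups (horizontal axis) for the 8 tested genes (vertical axis), as limma estimates with 95% intervals. KDR lies right of 0 in all 3 comparisons, FLT1 on both sides, and the S1PR1 interval for CD201-only against double-positive cells spans 0.

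ENG, or endoglin, was the most abundant of the 10 genes in each group. It was at 24.9 FPKM in both double-negative libraries, 34.2 and 33.8 in CD201-only and 76.8 and 71.1 in double-positive libraries, a rise in steps without overlap. Double-positive cells were 2.97 times above double-negative (log2 difference of double-negative against double-positive -1.53, SE 0.0417, adjusted p = 3.06e-07) and 2.17 times above CD201-only cells (-1.10, adjusted p = 1.52e-06). The step between double-negative and CD201-only cells was smaller (-0.43, adjusted p = 0.000262). Exons of ENG overlap an antisense gene that has no row in the table. Since libraries are bulk, fewer cells with a transcript and less of it per cell cannot be told apart.

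ACVRL1, the type I receptor that works with ENG for BMP9, differed from it in order. It was at 5.76 and 7.03 FPKM in double-negative, 17.4 and 16.2 in CD201-only and 16.3 and 15.1 in double-positive libraries. It was lower in double-negative cells than in double-positive (-1.18, SE 0.0878, adjusted p = 2.64e-05) and CD201-only cells (-1.27, adjusted p = 5.63e-05), and the value between CD201-only and double-positive cells was 0.091 (adjusted p = 0.401). ID1, a target gene of this receptor, had the same split, at 90.5 and 86.4 FPKM in double-negative and between 164 and 178 in the other libraries. ID3, of the same list, did not, at 45.9, 46.3 and 62.3 FPKM as group means. It was lower in both CD13- groups than in double-positive cells (-0.43, adjusted p = 7.8e-05, and -0.42, adjusted p = 0.000107). ID2 was at 7.50, 13.3 and 15.5 FPKM, and was also lower in CD201-only than in double-positive cells (-0.20, adjusted p = 0.0129). TGFBR2, the type II receptor for TGF-beta, was lower in both CD13- groups than in double-positive cells (-1.11, adjusted p = 1.5e-06, and -1.26, adjusted p = 1.18e-06). SMAD6, an inhibitor of the pathway, was lower in CD201-only than in double-positive cells (-0.64, adjusted p = 0.00123). The ligands GDF2 (BMP9) and BMP10 were listed at 0 in all 6 libraries. Of 13 tested genes of the list, 2 were higher and 6 lower in double-negative against double-positive cells (median -0.2, all genes 42.1% and 24.5%). In CD201-only against double-positive cells 1 was higher and 4 lower (median -0.075, all genes 35.8% and 22.9%).

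S1PR1, the G-protein-coupled receptor for sphingosine 1-phosphate, separated double-negative cells from the rest. It was at 7.39 and 7.55 FPKM there, 16.2 and 15.6 in CD201-only and 15.9 and 15.9 in double-positive libraries. Double-negative cells were below double-positive cells on the log2 scale (-0.996, SE 0.0449, adjusted p = 2.39e-06) and below CD201-only cells (-0.997, adjusted p = 8.03e-06). CD201-only and double-positive libraries overlapped, and the 95% interval of their difference was -0.11 to 0.11 (adjusted p = 0.995).

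S1PR4 and S1PR5 were at no more than 0.0935 and 0.603 FPKM and were not tested. S1PR2 was at 4.03 and 4.21, 5.60 and 5.59, and 10.6 and 10.0 FPKM, and S1PR3 at 7.18 and 7.28, 10.7 and 10.3, and 15.3 and 14.7, so both rose in steps towards double-positive cells. S1PR3 was lower in double-negative than in CD201-only cells (-0.49, adjusted p = 0.000346). SPHK1, a kinase that makes the ligand, was at 41.8 and 41.0, 48.7 and 46.3, and 108 and 107 FPKM (-1.35 in double-negative against double-positive, adjusted p = 1.83e-07). SPNS2, which exports it, was at 0.658 and 0.554, 2.73 and 2.42, and 5.53 and 5.60 FPKM (-2.03, SE 0.0836, adjusted p = 1.63e-06). Of 8 tested genes of the list, 1 was higher and 4 lower in double-negative cells than in double-positive cells (median -0.58, all genes 42.1% and 24.5%). In CD201-only against double-positive cells 1 was higher and 5 lower (median -0.32, all genes 35.8% and 22.9%).

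TEK and TIE1, the angiopoietin receptor and its partner, were ordered differently. TEK was highest in CD201-only cells, at 24.6 and 26.4 FPKM, against 13.5 and 13.9 in double-negative and 18.0 and 19.9 in double-positive libraries. CD201-only cells were above double-positive (0.41, SE 0.0593, adjusted p = 0.000888) and double-negative cells (log2 difference of double-negative against CD201-only -0.85, adjusted p = 5.81e-05), and double-negative below double-positive cells (-0.44, adjusted p = 0.000528). Of all genes tested, 7.79% were called higher in CD201-only cells than in both other groups, and TEK was the 1 of the 8 genes among them. FLT1 was the 1 gene called lower in CD201-only cells than in both others (7.35% of all genes).

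TIE1, an orphan receptor that pairs with TEK, was at 0.582 and 0.904 FPKM in double-negative, 2.30 and 2.63 in CD201-only and 3.21 and 3.50 in double-positive libraries. Double-negative cells were 4.51 times below double-positive cells (-1.33, SE 0.113, adjusted p = 5.24e-05, and -2.06 with a pseudocount of 0.1). They were also below CD201-only cells (-1.0, adjusted p = 0.000594, and -1.63 with that pseudocount). The difference of CD201-only against double-positive cells was close to the threshold (-0.33, 95% interval -0.60 to -0.062, adjusted p = 0.0401). It was not called in 8 of 16 alternatives, among them each that left out a CD201-only or double-positive library (adjusted p from 0.0631 to 0.177), and over all 16 the adjusted p ran from 0.0199 to 0.177. Leaving out any single library kept the other calls of the 8 genes, apart from the KDR call above.

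ANGPT1, the ligand that activates TEK, was at 4.99 and 4.72 FPKM in double-negative libraries and between 1.32 and 1.55 in the other 4, so it was highest where TEK was lowest (1.21 in double-negative against double-positive, SE 0.0839, adjusted p = 1.87e-05). ANGPT2, the ligand that competes with it, was at no more than 0.386 FPKM. PTPRB, a phosphatase that acts on TEK, was at 7.16 and 7.09, 5.23 and 5.99, and 4.09 and 4.29 FPKM, and was higher in both CD13- groups than in double-positive cells (0.65, adjusted p = 0.000225, and 0.35, adjusted p = 0.00576). SVEP1, a large matrix protein that binds TIE1, was highest in CD201-only cells like TEK, at 7.14 and 7.59 FPKM against 3.70 to 4.26 in the other libraries (0.78 against double-positive cells, adjusted p = 7.03e-05). Of 3 tested genes of this list, 2 were higher and 0 lower in each of double-negative and CD201-only against double-positive cells (medians 0.65 and 0.35). Of all genes, 42.1% and 35.8% were higher and 24.5% and 22.9% lower in these comparisons.

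Counted over the 8 tested genes, 1 was higher and 7 lower in double-negative than in double-positive cells, and 2 were higher, 5 lower and 1 not called in CD201-only cells. In double-negative against CD201-only cells 2 were higher and 6 lower. Among all genes, 42.1% were higher and 24.5% lower in double-negative than in double-positive cells. The shares were 35.8% higher and 22.9% lower in CD201-only than in double-positive cells, and 21.5% higher and 16.5% lower in double-negative than in CD201-only cells. Called differences of at least 1 on the log2 scale were found for 5 of the 8 genes (NOS3, ROBO4, ENG, KDR and TIE1) in double-negative against double-positive cells, with 6.68% of all genes, for 4 (ROBO4, FLT1, ENG and NOS3) in CD201-only against double-positive cells, with 4.8%, and for 2 (NOS3 and KDR) in double-negative against CD201-only cells, with 2.21%. The set was chosen with earlier results of these data known, and KDR, ROBO4 and TIE1 passed the filter through the groups where they are high. These counts describe the set and are no test of it against all genes. All 8 passed the moderated F test among the 3 groups, which 73% of all genes passed. ENG, NOS3, ROBO4 and TIE1 rose in both steps from double-negative to CD201-only to double-positive cells, as did 4.6% of all genes, and KDR fell in both, as did 6.56%. The second step was not called in 8 of 16 alternatives for TIE1 and in 3 of 16 for KDR. Of the genes called, the share that was higher depends on scaling. It was 63.2% in double-negative and 61% in CD201-only against double-positive cells, and 48.3% and 48.1% after median-ratio rescaling. In double-negative against double-positive cells that rescaling gave 3649 genes higher and 3899 lower of 12210, against 5136 and 2994 without it. In CD201-only against double-positive cells it gave 3228 and 3481, against 4370 and 2795. The shares of all genes set beside the lists are those without it. Rescaling moved the median of all genes in double-negative against double-positive cells from 0.109 to 0.0035. The directions of KDR and FLT1 were the same under that rescaling (1.28 and -1.02 in double-negative against double-positive cells).

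Other genes used to recognise endothelium were mixed. Of 22 further markers 13 were tested, and 2 were higher and 9 lower in double-negative against double-positive cells (median -0.65, all genes 42.1% and 24.5%). In CD201-only against double-positive cells 3 were higher and 6 lower (median -0.13, all genes 35.8% and 22.9%). BMX (1.155, adjusted p = 3.12e-05) and APLNR (0.32, adjusted p = 0.000957) were the 2 higher in double-negative than in double-positive cells. BMX was at 2.39 and 2.22, 0.980 and 0.922, and 0.453 and 0.514 FPKM. PROCR is one of the 13 and was selected by the sort. DLL4, a Notch ligand of endothelial tip cells, was at 0.542 and 0.529, 0.321 and 0.256, and 4.24 and 4.58 FPKM (-1.82 in double-negative, adjusted p = 3.6e-06, and -2.07 in CD201-only against double-positive cells, adjusted p = 2.55e-06). ESM1, a secreted proteoglycan, was lower in CD201-only than in double-positive cells (-1.60, adjusted p = 1.1e-05). CD34, a sialomucin of endothelial and blood progenitors, was highest in CD201-only cells, at 49.7 and 50.3 FPKM, against 13.9 and 13.6 in double-negative and 25.7 and 25.5 in double-positive libraries. VWF was at no more than 1.0 FPKM, and MMRN1 and LYVE1 were listed at 0 in all 6 libraries.

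Transcription factors of endothelium were incomplete. ERG was at no more than 0.0682 FPKM, TAL1 and SOX17 were listed at 0, and FLI1 was between 10.1 and 13.8 FPKM. EPAS1, the hypoxia factor HIF-2 alpha, was at 2.36 and 2.13, 2.83 and 3.01, and 13.0 and 13.0 FPKM (-2.11 in double-negative against double-positive cells, adjusted p = 6.22e-07). NR2F2, a factor of venous identity, was lower in both CD13- groups than in double-positive cells (-1.49, adjusted p = 3.3e-06, and -1.45, adjusted p = 4.67e-06). HEY1, a Notch target, was highest in CD201-only cells, at 30.2 and 29.6 FPKM against 7.79 and 7.13 in double-negative and 14.5 and 16.4 in double-positive libraries. MEF2C was higher in double-negative than in CD201-only cells (1.23, adjusted p = 0.000106). Of 11 tested factors, 3 were higher and 6 lower in double-negative than in double-positive cells (all genes 42.1% and 24.5%). In CD201-only against double-positive cells 5 were higher and 5 lower (all genes 35.8% and 22.9%).

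Junction partners of CDH5 and PECAM1 were expressed although both were near 0. CTNNB1, or beta-catenin, was between 76.9 and 106 FPKM, and CTNNA1, or alpha-catenin, between 131 and 134. CLDN5, the claudin of endothelial tight junctions, was at 2.19 and 1.84, 4.16 and 4.04, and 6.48 and 6.75 FPKM, lower in double-negative (-1.34, adjusted p = 8.67e-06) and rising in steps. F11R, a junctional adhesion molecule that epithelial cells also carry, was at 70.1 and 68.6, 52.6 and 55.6, and 30.3 and 31.8 FPKM, higher in double-negative than in double-positive cells (1.14, adjusted p = 8.17e-07). JAM2 was higher in double-negative than in CD201-only cells (1.02, adjusted p = 8.87e-05). JUP, or plakoglobin, was higher in CD201-only than in double-positive cells (0.65, adjusted p = 2.46e-06). Of 10 tested partners 7 were higher and 1 lower in double-negative than in double-positive cells (all genes 42.1% and 24.5%). In CD201-only against double-positive cells 2 were higher and 2 lower (all genes 35.8% and 22.9%).

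**Figure D4:**
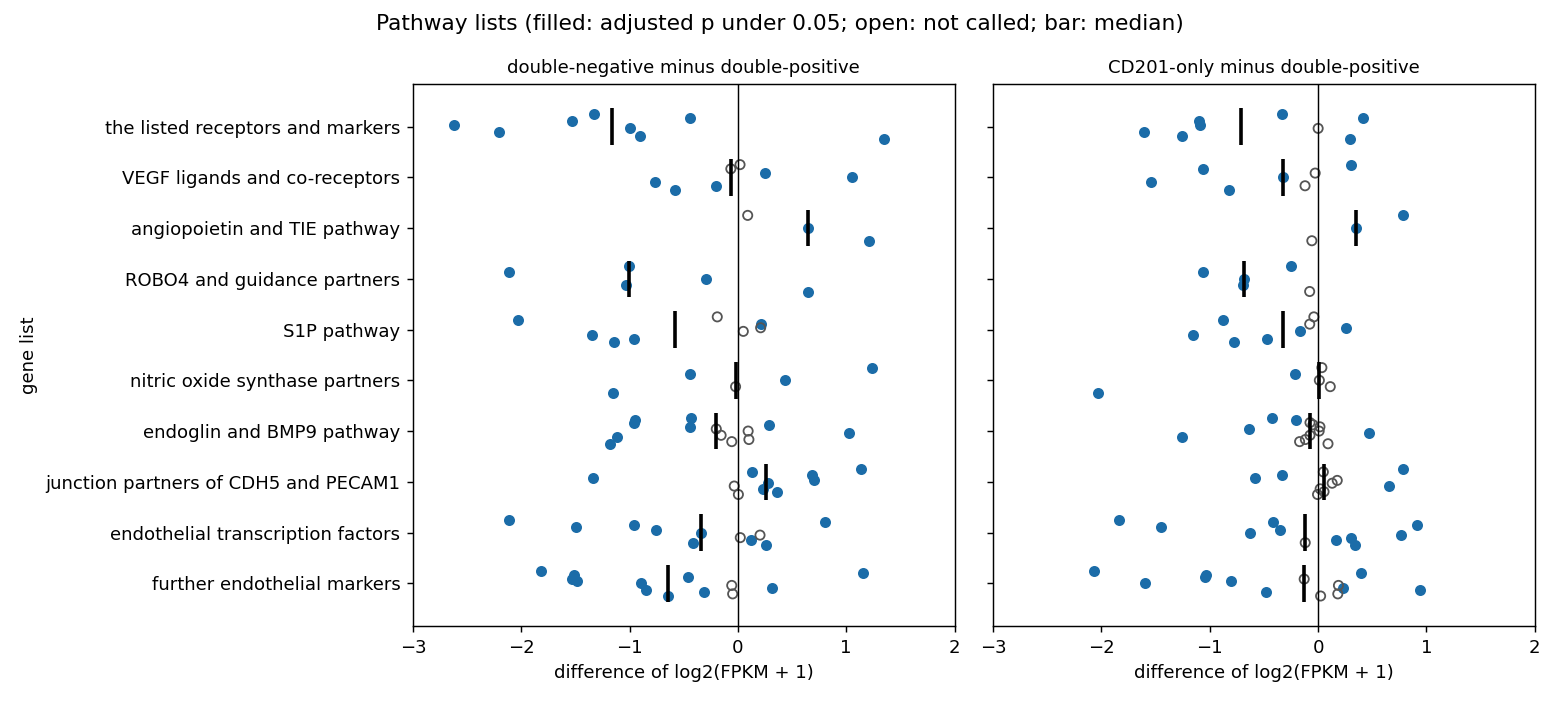
Differences of log2(FPKM + 1) (horizontal axis) for the tested genes of each list (vertical axis), in double-negative (left) and CD201-only cells (right) against double-positive cells; filled points are called, open points are not, and bars mark list medians. The receptors and markers lie mostly left of 0 (median -1.16 on the left panel, -0.71 on the right), and the junction partners mostly right of it on the left panel.

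Markers of other cells moved with the groups, and their part in these results was not tested. The fibroblast list had 1 gene higher (THY1) and 10 lower of 11 tested in double-negative against double-positive cells, and the sum of the list was given above. Of all genes, 42.1% were higher and 24.5% lower in that comparison, to which the counts of higher and lower genes below also refer unless stated. The mural cell list summed to 158 and 156, 204 and 208, and 429 and 416 FPKM. Pluripotent cell markers ran the other way, with 9 of 9 higher in double-negative cells and sums of 1825 and 1829, 1125 and 1086, and 1044 and 1020 FPKM. Most of these sums came from POU5F1 and SOX2, whose coding sequences the lentiviruses delivered, and the other 9 genes summed to 187 and 187, 120 and 121, and 56.5 and 58.9 FPKM. Blood cell markers had 0 higher and 4 lower of 4 tested (CD14, CD68, RUNX1 and RUNX3). The whole blood list summed to 45.9 and 43.4, 33.8 and 31.3, and 110 and 106 FPKM, with HBG1 and CD53 among those at 0. PTPRC, ITGAM and ITGA2B, of the same list, were too low to be tested and went the other way. They were 2.73, 1.3 and 2.17 times higher in double-negative than in double-positive cells. SPI1 and GP1BA were at no more than 0.0509 FPKM. Mesoderm markers had 0 higher and 3 lower of 4 tested and summed to 40.3 and 38.6, 117 and 114, and 81.7 and 80.0 FPKM, with TBXT at 0. Most of the CD201-only sum was HAND1, at 17.1, 93.3 and 35.7 FPKM as group means. In CD201-only against double-positive cells 1 of the 4 mesoderm genes was higher (HAND1) and 2 were lower (PDGFRA and FOXF1). Keratinocyte and epithelial markers had 5 higher and 4 lower of 9 and summed to 3091 and 3079, 4108 and 4035, and 2167 and 2103 FPKM. Nearly all of that was KRT8 and KRT18, and the other 8 genes summed to 34.6 and 32.4, 82.8 and 79.7, and 94.1 and 97.1 FPKM. KRT14 and KRT16, keratins of keratinocytes, were 16.4 and 9.17 times higher in double-positive than in double-negative cells. CLDN6, CDH1 and EPCAM, of the same list, were 2.89, 2.25 and 2.24 times higher in double-negative than in double-positive cells.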

How the data were processed

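FPKM for 27788 symbols in 6 libraries were deposited by the authors, and every column was assigned to its library (0 left over). STAR, Cuffnorm, hg19 and GRCh37 are named, per the submitters' processing notes. Their versions, the annotation, the scaling option and the strand setting: not given in the sources used here. Libraries were stranded and poly-A selected, per the labels' protocols.

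Libraries were grouped from their titles and fitted together on log2(FPKM + 1), for genes averaging 1 FPKM or more, in limma 3.58.1 (R 4.3.3) with a variance trend. Residual degrees of freedom were 3 and prior ones 3.95, and p-values were adjusted by Benjamini-Hochberg over 12210 genes. It was tested on simulated data. The 10 genes and the lists were chosen with earlier results of these data known. Named genes are the 10, ANPEP, PROCR, up to 2 called genes with the largest change per pathway list and comparison, and the 5 nearest profiles to KDR and to FLT1, of which 1 is not reported here; others were chosen after their values were seen. Depth was approximated from single-fragment steps in 7 to 17 long genes per library, at 8080000 to 18500000 fragments, and is rough. Between 0.123% and 0.139% of tested genes had identical values in the 2 libraries of a group. Promoter windows came from RefSeq, with 8 of the 10 genes matched; gene overlaps from GENCODE 29. Python 3.11.15, pandas 2.3.3 and matplotlib 3.10.9 were used. Alternatives changed the pseudocount, filter, scaling, variance model, libraries and pairing.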

Additional observations from a re-analysis of the deposited data

How the results depend on the processing

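Of the tested genes among the 10, those called numbered 8 of 8 (double-negative against double-positive), 7 of 8 (CD201-only against double-positive) and 8 of 8 (double-negative against CD201-only), where 66.6%, 58.7% and 37.9% of all genes were called. With a mean of at least 5 FPKM required, 5 genes were tested and 5, 4 and 5 called. The KDR difference of CD201-only against double-positive cells ran from 0.22 to 0.37 when a library was left out and lost its call in 3 of those 6 fits. S1PR1, not called in that comparison, changed sign under median-ratio rescaling (-0.079) and quantile normalization (-0.013), and ran from -0.023 to 0.024 with a library left out. All genes called between double-negative and CD201-only cells fell from 4632 to 2822 with the double-negative libraries averaged into 1, a fit with fewer samples, and ran from 2861 to 4872 with a library left out (2861 and 3010 without double-negative replicate 1 or 2). The mean ratio of KDR to FLT1, 0.306, 0.126 and 0.0302 from double-negative through CD201-only to double-positive, became 0.369, 0.228 and 0.0773 with 1 added to both values, and 0.0286 in double-positive cells under quantile normalization. Replicate numbers were not taken as pairs (correlations of deviations -0.0727 to 0.117). The replicate block gave 8110, 7189 and 4590 called genes against 8130, 7165 and 4632 without it, and changed no call of the 8 genes. Precision of KDR, ROBO4, TIE1, CDH5 and PECAM1 is limited by few fragments, and 2 libraries a group limit all tests.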
